A study of Mus musculus with 12 samples.

Results

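Collagen chain genes were examined as a group: genes whose mouse symbol reads Col, a type number, the letter a and a chain number (Col1a1, Col4a5 and so on). Among the 18194 genes that could be named from the array's annotation, 42 fitted this pattern, covering 26 collagen types, and they came from 82 probe sets that carried a collagen chain as their only symbol. For each gene the probe set with the highest mean over all 12 arrays was read. RefSeq lists 44 protein-coding mouse genes with such a symbol, and Col28a1 and Col6a6 were not analysed here. With a mean log2 signal of 6 as the line, 26 chains of 17 types lay above it and 16 lay below it, the nearest being Col22a1 at 6.00 and Col2a1 at 5.80.

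Collagens are secreted matrix proteins in which 3 α chains wind into a triple helix, and each chain is made from its own gene. Fibrillar collagens (types I, III, V, XI and others) form the fibrils of connective tissue, type IV forms the sheet of basement membranes, type VI forms beaded filaments beside cells, and fibril-associated collagens such as types XII, XIV and XVI sit on fibril surfaces. In lung, fibrillar collagens are mostly made by fibroblasts, whereas epithelial cells rest on a basement membrane rich in type IV.

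The samples were A2C12 cells, an established tumour line of C57BL/6 background grown from the lung of a mouse carrying both a c-myc and a c-raf transgene. It is a single line, so all 12 arrays share its genotype and both transgenes. Cells were left untreated or were given a monoclonal antibody against mouse EpCAM (an epithelial surface protein) at 100 µg/ml for 48 h. Both were then stained with Hoechst 33342 at 5 µg/ml for 90 min and sorted into side population (SP) cells, which exclude the dye, and non-SP cells, which keep it. This gave 4 groups, untreated cells of either fraction and treated cells of either fraction, with 3 arrays apiece that the labels number as biological replicates, on an Affymetrix 3′ platform. The p-values given here measure the spread between these samples of a single line.

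Array medians lay between 5.72 and 6.06. Arrays of SP and of non-SP cells that share a replicate number and a treatment held the same value, to the last deposited digit, at 914 to 2000 of 45101 probe sets (2.03% to 4.43%), whereas the other 60 pairs of arrays did so at 0 to 4 probe sets. Their deviations from their group means also correlated, with r between 0.55 and 0.84 over all genes. Each such pair is called a culture below, although the labels do not say that both arrays came from the same dish. Whether each pair was normalised apart from the others is not given in the sources used here, so a difference between cultures and a difference in the processing of pairs cannot be told apart. The antibody was compared across such pairs and the fractions within them. In the anti-EpCAM culture with number 2 the 3′ probe set of actin exceeded the 5′ one by 0.895 (non-SP) and 1.03 (SP) log2 units, against at most 0.733 on the other 10 arrays, and values without this culture are given where a result changed.

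The highest signals belonged to chains of fibrils, beaded filaments and basement membrane. Probe sets differ in how well they bind, so signals place each chain above or below the line and do not rank transcript amounts between genes. Of 11 fibrillar chains, 8 were above the line. Col1a2, a chain of type I collagen, had a mean signal of 12.58 and ranged over the 12 arrays from 12.15 to 12.98. Its partner Col1a1 had 11.50, and Col3a1, the only chain of type III, had 12.27. Type V, which regulates fibril width, was represented by Col5a2 (11.05), Col5a1 (10.33) and Col5a3 (8.27). Col11a1 had 7.72 and Col27a1 7.51, while Col2a1, the cartilage fibril chain, Col11a2 at 5.32 and Col24a1 at 2.89 lay below the line.

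For type IV, 4 of 6 chains were above the line. Col4a1 (10.25) and Col4a2 (9.38), which build the common form of the basement membrane network, and Col4a5 (11.04) with Col4a6 (7.08), which build another form, were all above it. Col4a3 (5.13) and Col4a4 (4.69), which join Col4a5 in the network of alveolar and kidney basement membranes, were not. Type VI showed the same division between its chains: Col6a1 (12.14), Col6a2 (11.86) and Col6a3 (9.50), the classical trimer, were above the line, and Col6a4 (5.63) and Col6a5 (3.44) below it.

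Among 9 fibril-associated chains 7 were above the line, namely Col14a1 (10.88), Col16a1 (9.27), Col12a1 (8.22), Col20a1 (6.82), Col9a1 (6.72), Col9a3 (6.44) and Col22a1 (6.00), and Col19a1 (4.27) was among the lowest. The value of Col20a1 came from an s_at probe set, which can take up signal from related transcripts. Col7a1, the anchoring fibril chain, had 8.01. Both multiplexins, whose ends can be cut off as soluble fragments, were above the line, Col18a1 at 8.21 and Col15a1 at 6.34. The 3 chains of short-chain networks were all below it, with Col8a1 at 5.72, Col10a1 at 5.71 and Col8a2 at 3.75. Of 4 transmembrane collagens only Col25a1 (7.66) was above it, and Col26a1 had 4.42. A line at 5 would have kept 33 chains and a line at 7 would have kept 21. A further probe set existed for 20 of the 26 chains above the line, and for 15 of these at least 1 further probe set was above 6 as well.

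**Figure D1:**
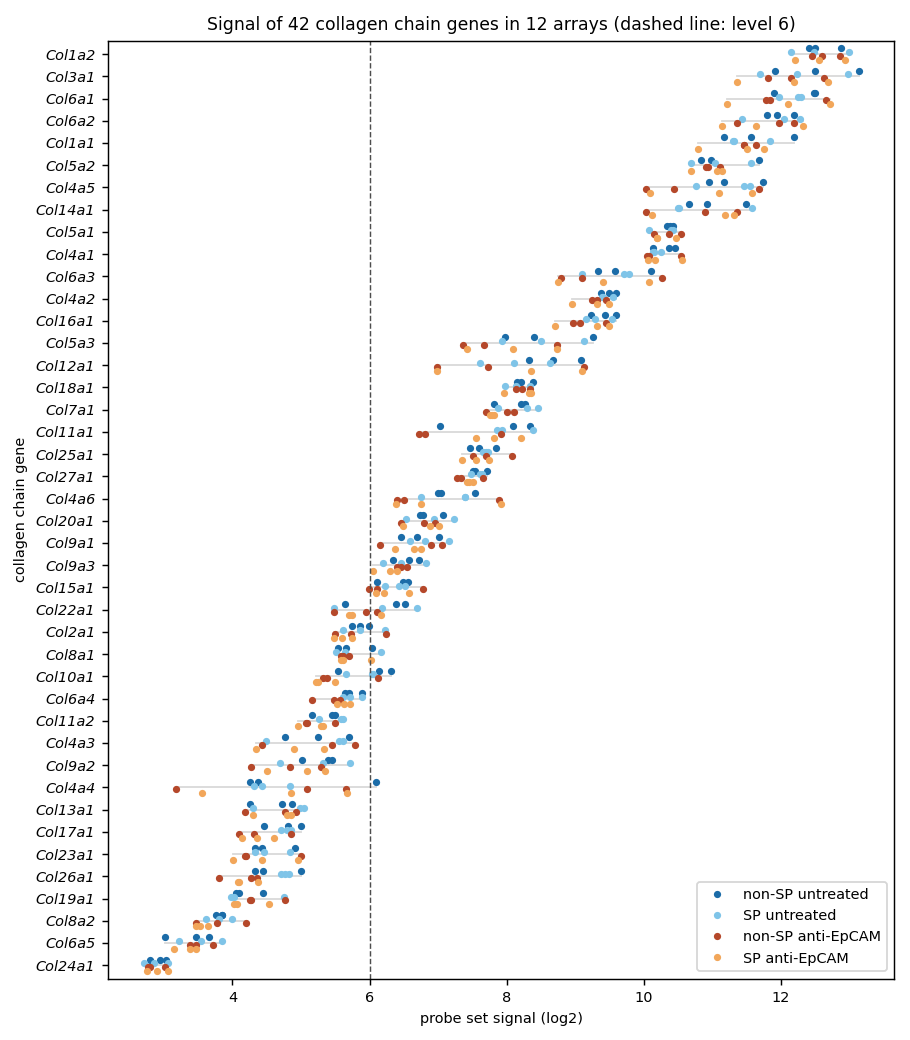
Log2 probe set signal (x axis) of the 42 collagen chain genes (y axis, ordered by mean) in the 12 arrays, coloured by group, with a dashed line at 6. The 26 chains from Col1a2 to Col22a1 have means at or right of the line.

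Epithelial and mesenchymal genes were both present in these cells. Of 10 epithelial markers 6 were above a mean of 6, among them Krt19 (11.71), Krt8 (8.77), Epcam (8.11) and Cdh1 (6.35). Cldn7 (5.57), Cldn4 (5.43), Krt7 (4.70) and Esrp1 (4.02) were below it. Of 12 fibroblast and mesenchymal markers 6 were above it, with Vim at 14.00, Acta2 at 12.77, Pdgfrb at 10.54, Pdgfra at 9.59 and Dcn at 9.27, whereas Thy1 (5.28), Postn (5.00), Lum (4.15) and Fap (3.63) were below it. Among 7 measured markers of alveolar type II cells 3 were above it, Abca3 (9.01), Sftpb (7.44) and Napsa (6.76), and Sftpc was not (5.64). Of 6 endothelial markers 1 was above it, Kdr (6.70). Of 6 leukocyte and macrophage markers 3 were, Csf1r (9.98), Cd14 (8.94) and Cd68 (7.33), with Ptprc, which defines leukocytes, at 3.42. The mean signal of the 12 mesenchymal markers ran over the 3 arrays of a group from 7.56 to 7.997 in non-SP untreated, 7.59 to 7.90 in SP untreated, 7.58 to 7.89 in non-SP anti-EpCAM and 7.63 to 7.88 in SP anti-EpCAM cells. The part of other cells in the collagen signal was not tested, and in a sorted bulk sample fewer cells of a kind and less RNA per cell cannot be told apart.

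No collagen chain differed between SP and non-SP cells past the threshold, with or without the antibody. The threshold was an adjusted p under 0.05 from limma with Benjamini-Hochberg adjustment over all genes. In untreated cells 0 of 42 chains passed it (0% of all genes did), 0 passed an unadjusted p under 0.05 (0.022% of all genes), and in 0 chains were all SP arrays above (1.24% of all genes) or below (1.13%) all non-SP arrays. The median difference of the 26 chains above the line was -0.06 log2 units, against 0.01 for all genes. For 22 of these 26 chains the 95% interval of the difference lay within 1 log2 unit of 0, that is within 2-fold.

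Col12a1, a fibril-associated chain, had the lowest difference between untreated fractions. It measured 8.67, 8.32 and 9.08 in non-SP cells and 8.64, 8.10 and 7.60 in SP cells. The fractions overlapped, and most of the difference came from replicate 3, where the SP array minus the non-SP array was -1.48 log2 units. The difference was -0.58 ± 0.55 (SE, n = 3 against 3, adjusted p = 1.00 by limma). At the other end was Col11a1, a minor fibrillar chain, with 8.10, 8.34 and 7.02 in non-SP and 7.93, 8.39 and 7.86 in SP cells, a difference of 0.24 ± 0.36 (SE) that turned to -0.16 without non-SP replicate 3. Col9a1 (0.13) and Col7a1 (0.11) were higher in SP cells by less, and Col3a1 (-0.21) and Col14a1 (-0.16) lower. Below the line Col26a1 (0.17) and Col4a4 (-0.38) marked the ends.

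After the antibody 0 of 42 chains again passed the adjusted threshold between SP and non-SP cells (0% of all genes), 0 passed without adjustment (0.698%), and 0 were separated upward (0.572%) or downward (1.78%). The median of the chains above the line was -0.01 against -0.03 for all genes, and it was 0.04 with centred arrays, that is with the array's median subtracted. Col11a1 had the highest difference. It measured 6.72, 6.81 and 7.92 in non-SP and 7.56, 8.20 and 7.82 in SP cells. The SP array was the higher one in the cultures numbered 1 and 2 and the lower one in number 3, so the fractions overlapped. The difference was 0.71 ± 0.36 (SE, 95% interval -0.08 to 1.50, adjusted p = 1.00 by limma), and the other Col11a1 probe set above 6 gave 0.15.

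Fitting the culture as a block, which compares the 2 arrays of each culture, left the adjusted count at 0 in both cell states. Without adjustment this fit called 0 chains in untreated cells (1.68% of all genes) and 2 after the antibody (7.21% of all genes), Col11a1 as higher and Col4a3 as lower in SP cells, and the lowest adjusted p of any chain was 0.628 by limma. Col4a3 was lower in SP cells in each of the 3 anti-EpCAM cultures, with differences of -0.54, -0.45 and -0.09 log2 units at levels under 6. The share of all genes lower in all 3 was not counted, and the second Col4a3 probe set gave -0.02. With the culture as a random block the 2 chains called without adjustment were Col11a1 and Col8a2 (1671 of the 18194 genes were called). Next to Col11a1 the highest differences after the antibody were those of Col4a5 (0.21) and Col12a1 (0.20), and the lowest were those of Col9a3 (-0.22), Col25a1 (-0.21) and Col1a1 (-0.17). Col12a1 read 6.98113 in both arrays of the culture numbered 3, the only chain above the line with identical values in a culture. Below the line 5 further such values were found among Col8a1, Col8a2 and Col6a5.

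After the antibody most chains, like most genes, had slightly lower deposited signals, although with centred arrays the median of the chains above the line was -0.02 (non-SP) and 0.04 (SP); no change passed the test. In non-SP cells 0 of 42 chains passed the adjusted threshold (0% of all genes) and 2 passed without adjustment (3.22% of all genes), Col6a4 and Col26a1, both below the line and both lower. That count was 0 with centred arrays, with arrays quantile normalised again and with trend and robust settings in limma, and 4 without the anti-EpCAM culture numbered 2. The median difference of the chains above the line was -0.16 log2 units against -0.10 for all genes, and -0.02 against 0.04 with centred arrays. Of these 26 chains 24 had a negative difference and 2 a positive one, as 12896 of all 18194 genes were negative, and 18 of the 26 lay below the median of all genes. No chain had all treated arrays above the untreated ones (1.19% of all genes), and 1 chain had them all below (6.62%), Col6a4 with 5.64, 5.89 and 5.70 untreated and 5.17, 5.56 and 5.47 treated.

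The lowest differences above the line in non-SP cells were those of Col12a1, Col11a1 and Col5a3. Col12a1 measured 9.13, 7.73 and 6.98 after the antibody, against the untreated values given above. The treated arrays were spread more widely (SD 1.09 against 0.38, n = 3 each) and included the highest of all 6. The difference was -0.75 ± 0.55 (SE, adjusted p = 0.988 by limma), and the second Col12a1 probe set above 6 gave 0.21. Col11a1 differed by -0.67 ± 0.36 (SE), with its 2 lowest treated arrays, 6.72 and 6.81, under every untreated one. The remaining treated array, 7.92, lay above the lowest untreated array, 7.02, so the treatments overlapped. The other Col11a1 probe set above 6 gave -0.32. Col5a3, a minor type V chain, went from 8.39, 9.25 and 7.98 to 7.67, 7.36 and 8.74, which overlap, with a difference of -0.62 ± 0.44 (SE) that was -0.34 without the anti-EpCAM culture numbered 2. The highest differences were 0.13 for Col25a1, 0.04 for Col1a2 and -0.01 for Col18a1. Below the line the ends were Col19a1 (0.24) and Col9a2 (-0.49).

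In SP cells 0 of 42 chains passed the adjusted threshold after the antibody (0% of all genes) and 3 passed without adjustment (4.59% of all genes), Col7a1, Col10a1 and Col26a1, all lower. With centred arrays and with arrays quantile normalised again 0 chains did so. Without the anti-EpCAM culture numbered 2 the count was 2, Col10a1 and Col26a1, and these were also the 2 with only the arrays compared. With single arrays left out in turn, Col7a1 was called only without SP untreated replicate 3. All treated arrays lay above all untreated ones in 0 chains (0.434% of all genes) and below them in 4 chains (8.04%), namely Col7a1 above the line and Col10a1, Col17a1 and Col26a1 below it. Over all genes, too, far more were separated downward than upward in SP cells. Col7a1 measured 8.30, 8.46 and 7.87 in untreated SP cells and 7.82, 7.79 and 7.76 after the antibody. The 3 treated arrays lay close together and just under the lowest untreated array. The difference was -0.42 ± 0.19 (SE, unadjusted p = 0.0470, adjusted p = 1.00 by limma), and in non-SP cells it was -0.16 ± 0.19 (SE) with overlapping arrays.

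Col10a1, the chain of growth plate cartilage, measured 6.03, 5.66 and 6.05 in untreated and 5.22, 5.25 and 5.50 in treated SP cells, a difference of -0.59 ± 0.25 (SE) with values on both sides of the line. Col26a1 had 4.82, 4.71 and 4.76 against 4.37, 4.09 and 4.08, a difference of -0.58 ± 0.20 (SE). Both were among the weaker signals, and Col26a1 is one of the 5 chains with the lowest means. The median of the chains above the line was -0.15 against -0.12 for all genes, and it was 0.04 against 0.08 with centred arrays and -0.02 against -0.10 without the anti-EpCAM culture numbered 2. The other low differences were those of Col5a3 (-0.43, but -0.11 without that culture) and Col4a5 (-0.33, but 0.08 without it), and the high ones those of Col4a1 (0.08), Col18a1 (0.06) and Col12a1 (0.03). Col4a4 (0.17) was the highest below the line.

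**Figure D2:**
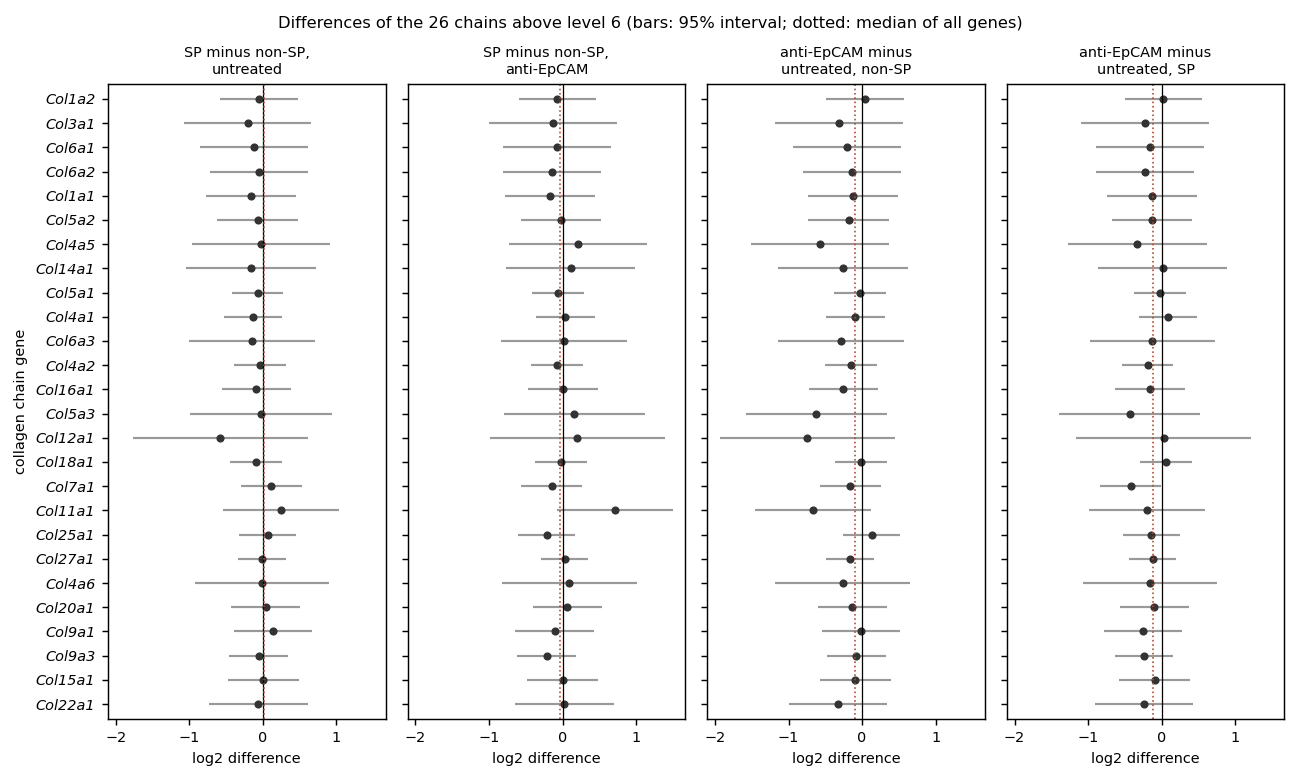
Log2 differences (x axis) of the 26 chains above the line (y axis) in 4 comparisons, with the 95% interval as a bar and the median of all genes as a dotted line. The points lie between -0.75 and 0.71, and only the bar of Col7a1 in SP cells, -0.83 to -0.01, does not reach 0, at an adjusted p of 1.00 by limma.

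Whether the antibody acted differently in the 2 fractions was tested directly as an interaction. By limma 0 of 42 chains passed the adjusted threshold (0% of all genes) and 0 passed without adjustment (0.236% of all genes). The median of the chains above the line was 0.05 against -0.03 for all genes. Col12a1 had the highest value, 0.77 ± 0.78 (SE), followed by Col11a1 at 0.47 and Col14a1 at 0.27. The values of Col12a1 and Col11a1 depended on the probe set read. In the other Col11a1 probe set above 6 the fraction difference was 0.29 untreated and 0.15 after the antibody, the reverse order. In the second Col12a1 probe set above 6 it was -0.24 untreated and -0.07 after the antibody. The lowest values were those of Col25a1 (-0.28), Col7a1 (-0.26) and Col9a1 (-0.24). Below the line Col4a4 (0.44) and Col4a3 (-0.35) were the ends. The intervals of this fit, which does not use the pairing, are wide: for 15 of the 26 chains they lay within 1 log2 unit of 0. With the culture as a block 0 chains passed with or without adjustment, and the lowest adjusted p of any chain was 0.767 by limma. Without adjustment that fit called 1003 of the 18194 genes.

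The culture means of several chains differed by more than 2-fold, and the order of the cultures was not that of the treatments. Over the 6 culture means 10 of the 26 chains above the line spanned at least 1 log2 unit, that is 2-fold, against 14.1% of all genes and 10.5% of the genes above 6. These were Col3a1, Col6a1, Col4a5, Col14a1, Col6a3, Col5a3, Col12a1, Col11a1, Col4a6 and Col22a1. The median span of the 26 chains was 0.74 log2 units against 0.63 for all genes, and the median absolute difference within a culture, between its fractions, was 0.17 against 0.14. These values are descriptions with no test. The count was 10 with centred arrays, 9 of them shared with the first count (11.4% of all genes), and 8 with arrays quantile normalised again, all of them shared (10% of all genes). It was 8 with the mean over all probe sets of a gene, where Col5a3, Col12a1 and Col22a1 dropped out and Col6a2 joined (9.83% of all genes). It was 7 without the anti-EpCAM culture numbered 2, where Col6a1, Col4a5 and Col14a1 dropped out (9.57% of all genes).

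**Figure D3:**
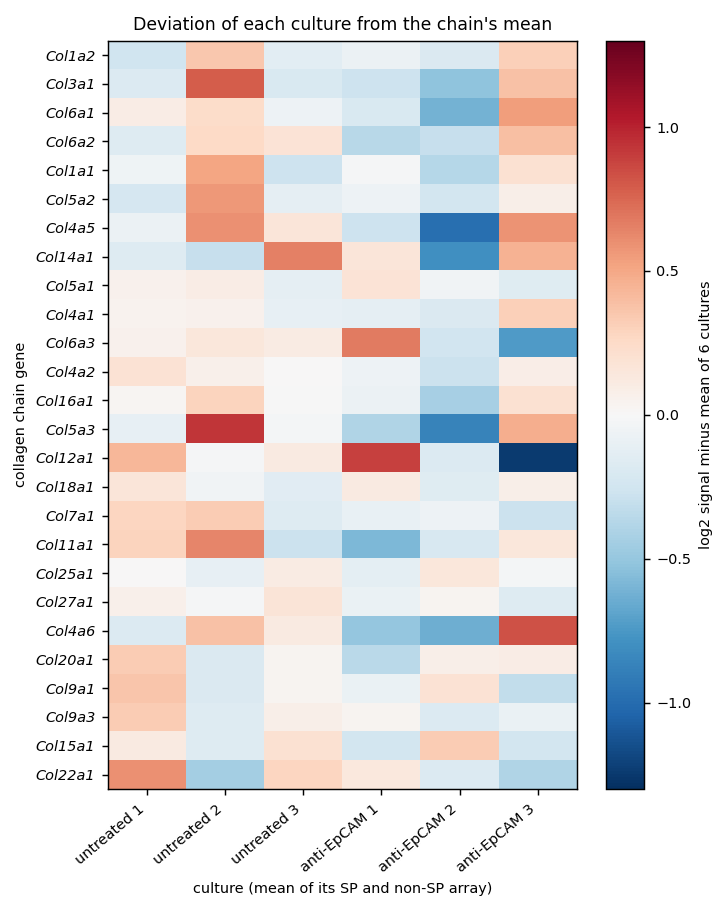
Deviation of each culture mean from the mean of the 6 cultures (colour, log2 units) for the 26 chains above the line (rows). Col3a1, Col5a3 and Col4a5 are red in untreated 2 and anti-EpCAM 3 and blue in anti-EpCAM 2, whereas Col6a3 and Col12a1 are red in anti-EpCAM 1 and blue in anti-EpCAM 3.

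Of the 10 chains 6 were lowest in the anti-EpCAM culture numbered 2, and 4 were highest in the untreated culture numbered 2. Col3a1 had culture means of 12.09, 13.05 and 12.07 untreated and 11.999, 11.75 and 12.65 after the antibody. Untreated 2 and anti-EpCAM 3 stood above the other cultures, and the 2 treatments overlapped. Its second probe set, with a lower signal, had the same 2 cultures on top (10.26 and 9.54) and anti-EpCAM 2 lowest (8.23). Col5a3 followed the same order at its ends, with 8.16, 9.19 and 8.24 untreated and 7.88, 7.39 and 8.74 treated, a span of 1.80 log2 units or 3.48-fold.

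Type IV chains of the network formed by Col4a5 and Col4a6 had similar orders across the cultures. Col4a5 had 10.97, 11.64 and 11.20 untreated and 10.77, 10.06 and 11.63 treated, a 2.98-fold span. Col4a6 had 6.90, 7.46 and 7.20 untreated and 6.58, 6.44 and 7.90 treated, a 2.76-fold span. For both genes anti-EpCAM 2 was lowest and anti-EpCAM 1 next, and anti-EpCAM 3 and untreated 2 held the upper places. The second probe sets gave spans of 1.46 (Col4a5) and 0.94 log2 units (Col4a6), and anti-EpCAM 3 and untreated 2 were again the highest cultures, at 9.80 and 9.99 for Col4a5 and 6.89 and 7.19 for Col4a6. The second Col4a6 probe set was lowest in anti-EpCAM 1 (6.25), followed by anti-EpCAM 2 (6.30).

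Col12a1 and Col6a3 were ordered otherwise. Col12a1 had culture means of 8.65, 8.21 and 8.34 untreated and 9.11, 8.04 and 6.98 treated, the widest span above the line, 2.13 log2 units or 4.37-fold. Its highest and lowest cultures had both received the antibody. The span of its second probe set above 6 was 0.64 log2 units, from 7.40 in anti-EpCAM 1 to 6.76 in untreated 1, so its extent depended on the probe set read. Col6a3 was measured by a single probe set, with 9.56, 9.65 and 9.61 untreated and 10.17, 9.25 and 8.77 treated, and had the same highest and lowest cultures. Dcn, which encodes the fibril-binding proteoglycan decorin, had 9.49, 8.03 and 10.03 untreated and 11.24, 8.92 and 7.91 treated, also with anti-EpCAM 1 highest and anti-EpCAM 3 lowest. It is named here outside the rule used for the gene lists. From the lists read below Thbs1 (11.62 and 10.12), Loxl1 (6.38 and 5.34) and Tnxb (9.19 and 8.26) had the same ends. Others there did not, such as Sparc, highest in anti-EpCAM 3 (13.47) and lowest in anti-EpCAM 2 (12.52). The share of all genes with these ends was not counted, so no grouping is read from them. In untreated culture 3 Col6a3 (10.11 against 9.10), Col12a1 (9.08 against 7.60) and Dcn (11.06 against 9.002) were higher in the non-SP than in the SP array.

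**Figure D4:**
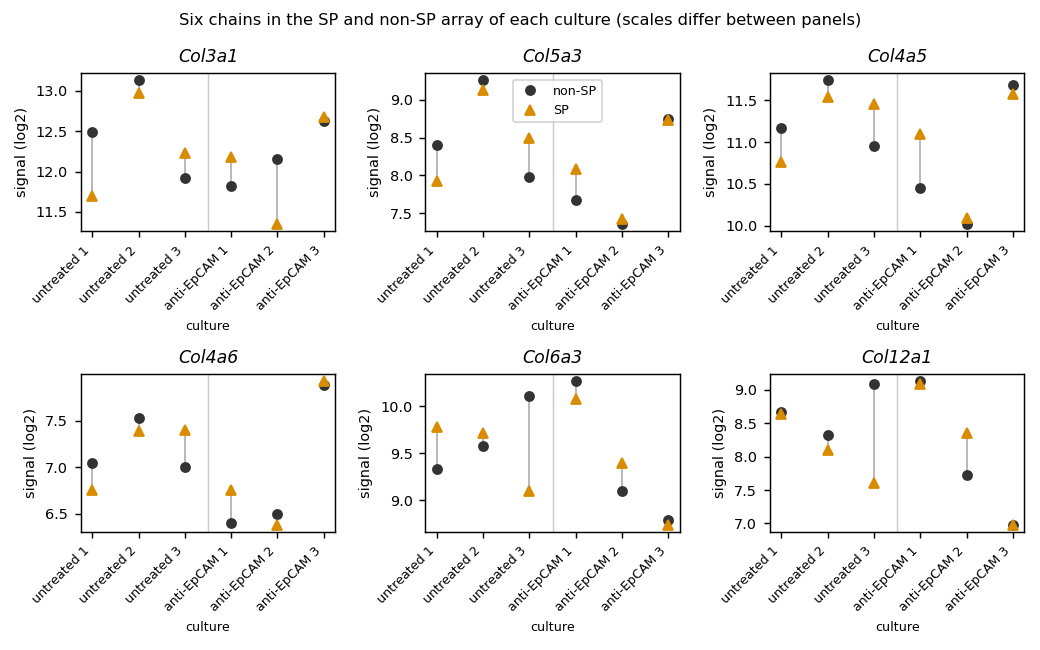
Log2 signal of 6 chains (panels, each with its own y axis) in the non-SP (circle) and SP (triangle) array of the 6 cultures (x axis), with a line joining the 2 arrays of a culture. Col4a5 is lowest in anti-EpCAM 2 (10.02 and 10.09) and Col12a1 is lowest in anti-EpCAM 3 (6.98 in both fractions).

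Chains of the same type were compared over the 6 culture means in 14 pairs, with exact two-sided permutation tests whose smallest possible p is 0.00139. Pearson's r was above 0 in 11 of the 14 pairs, with a median of 0.74, and over all 325 pairs of chains above the line the median was 0.11. After Benjamini-Hochberg adjustment over the 14 pairs 0 passed 0.05, the lowest adjusted permutation p being 0.107 for Pearson and 0.117 for Spearman. For each pair r was also taken without 2 cultures, those farthest from the median of the chain with the higher mean signal. Which cultures these are can differ between pairs. Col4a5 and Col4a6 gave r = 0.91 (exact permutation p = 0.0111, n = 6) and Spearman's rho = 0.94 (exact permutation p = 0.0167), and r was 1.00 without the 2 cultures farthest from the median of Col4a5. Col1a1 and Col1a2, which join in the type I helix, gave r = 0.86 (exact permutation p = 0.0306) and rho = 0.83 (exact permutation p = 0.0583). That relation rests on 2 cultures, since r was 0.10 without them.

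Within type VI, Col6a1 and Col6a2 gave r = 0.80 (exact permutation p = 0.0444, rho = 0.89, exact permutation p = 0.0333) and 0.64 without the 2 farthest cultures. Col6a3 gave negative values with both: r was -0.37 with Col6a1 (exact permutation p = 0.474, rho = -0.26, exact permutation p = 0.658) and -0.55 with Col6a2 (exact permutation p = 0.294, rho = -0.43, exact permutation p = 0.419). Leaving out the 2 cultures farthest from the median of Col6a1 changed the first to -0.71. Leaving out the 2 farthest from the median of Col6a2 changed the second to 0.84, so its sign rests on those cultures. Without the anti-EpCAM culture numbered 2 alone the values were -0.91 and -0.79. Col5a2 and Col5a3 gave r = 0.87 (exact permutation p = 0.0167, rho = 0.83, exact permutation p = 0.0583) and 0.40 without 2 cultures, and Col5a1 gave 0.21 with Col5a2 and -0.04 with Col5a3 (exact permutation p = 0.742 and 0.924). Each culture's pair of arrays may have been normalised apart from the others, which the sources used here do not say. The part of this, or of any shared preparation, in these values was not tested.

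Several of these genes are neighbours on their chromosomes, in the RefSeq annotation of GRCm38.p6. Col4a6 (chrX:141165403-141474095) and Col4a5 (chrX:141475370-141689236) lie head to head with 1274 bases between them, Col3a1 (chr1:45311538-45349706) and Col5a2 (chr1:45374331-45503282) are 24624 bases apart, and Col6a2 and Col6a1 on chromosome 10 are 85161 bases apart. Col4a1 and Col4a2 on chromosome 8 overlap at their starts, as do Col4a3 and Col4a4 on chromosome 1. Col6a3 (chr1:90766860-90844001) and Col12a1 (chr9:79598987-79721141), which shared highest and lowest cultures, are on different chromosomes.

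The sequence before the start site was read from RefSeq's promoter windows for GRCm38.p6, which held 36 windows for 33 of the 42 chains, and 6 of them are shown for the chains with the highest signal or the widest span for which a window was given. A window is the 250 bases before the start that the table gives, which for Col4a5, Col4a6, Col5a3 and Col6a3 lies 19 to 50 bases inside the gene's outermost RefSeq bounds. What is printed stops at those bounds, on the gene's strand and 5′ to 3′, with CCAAT (or its reverse complement ATTGG) and TATAAA (or TTTATA) in capitals. CCAAT and TATAAA are the letters of the common CCAAT and TATA boxes of promoters. The printed sequences lie at chr6:4505368-4505617 on the plus strand (Col1a2), chr1:45311288-45311537 plus (Col3a1), chrX:141475169-141475369 plus (Col4a5), chrX:141474096-141474326 minus (Col4a6), chr9:20815118-20815317 minus (Col5a3) and chr1:90844002-90844221 minus (Col6a3).
Col1a2: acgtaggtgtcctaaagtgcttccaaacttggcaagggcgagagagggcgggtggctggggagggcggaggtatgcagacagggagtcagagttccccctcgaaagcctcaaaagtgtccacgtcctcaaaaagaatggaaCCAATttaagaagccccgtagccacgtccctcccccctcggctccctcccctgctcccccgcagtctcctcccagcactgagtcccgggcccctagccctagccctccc
Col3a1: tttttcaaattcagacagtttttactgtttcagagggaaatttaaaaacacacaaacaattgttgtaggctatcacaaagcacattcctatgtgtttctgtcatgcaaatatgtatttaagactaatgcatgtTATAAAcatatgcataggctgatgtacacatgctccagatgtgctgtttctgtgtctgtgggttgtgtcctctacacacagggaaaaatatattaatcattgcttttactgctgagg
Col4a5: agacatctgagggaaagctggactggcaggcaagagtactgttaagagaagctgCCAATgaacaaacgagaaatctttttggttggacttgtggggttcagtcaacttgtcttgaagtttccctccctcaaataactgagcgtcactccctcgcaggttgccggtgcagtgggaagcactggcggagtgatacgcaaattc
Col4a6: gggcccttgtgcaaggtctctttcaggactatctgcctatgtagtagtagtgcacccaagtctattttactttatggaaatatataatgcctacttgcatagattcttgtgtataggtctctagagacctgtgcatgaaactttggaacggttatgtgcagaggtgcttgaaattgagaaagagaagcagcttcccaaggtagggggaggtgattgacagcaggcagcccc
Col5a3: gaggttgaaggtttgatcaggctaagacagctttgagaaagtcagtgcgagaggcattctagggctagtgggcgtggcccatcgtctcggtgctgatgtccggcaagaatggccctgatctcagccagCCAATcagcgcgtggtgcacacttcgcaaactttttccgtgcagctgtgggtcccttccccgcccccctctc
Col6a3: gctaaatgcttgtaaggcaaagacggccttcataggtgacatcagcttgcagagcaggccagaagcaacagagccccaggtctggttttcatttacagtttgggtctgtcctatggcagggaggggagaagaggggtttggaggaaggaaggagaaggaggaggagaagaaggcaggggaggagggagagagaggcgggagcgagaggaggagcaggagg
Counting -1 as the last base before the table's start, CCAAT began at -109 in Col1a2, -122 in Col5a3 and -196 in Col4a5, and TATAAA began at -117 in Col3a1. The windows of Col4a6 and Col6a3 held neither motif. On either strand CCAAT was found in 13 of the 36 collagen windows (36.1%) and in 11 of the 23 windows of chains above the line (47.8%), against 33.8% of all 32851 windows in the table. The 23 windows belong to 20 genes, and some starts lie far inside the gene's outermost bounds. The distance was 52825 bases for a Col18a1 window, 17614 for a Col9a1 window and 3212 for Col20a1. TATAAA was in 5 of the 36 (13.9%) and in 1 of the 23 (4.35%), against 12.4% of all windows. Col4a5 and Col4a6, whose culture orders were similar, differed in whether the letters CCAAT occur in their windows. The motifs do not overlap, and a match describes letters only.

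Genes that make, bind or accompany collagen were read from 3 lists. Of 29 measured genes for making collagen 24 were above 6. P4hb, a subunit of the prolyl hydroxylase, had a mean of 13.53, Lox, which cross-links fibrils, 13.13, and Serpinh1, the collagen chaperone, 12.66, while P4ha1 had 10.77 and Plod2, a lysyl hydroxylase, 8.66. By limma 0 of the 29 passed the adjusted threshold in any of the 5 comparisons, and without adjustment 1 did so after the antibody in each fraction (3.22% of all genes in non-SP and 4.59% in SP cells), Tll2, a protease of the procollagen-cutting family with a mean of 4.13, with differences of -0.46 ± 0.19 in non-SP and -0.52 ± 0.19 in SP cells (SE). The medians of the list were -0.03 and 0.00 between fractions and -0.15 and -0.11 between treatments, against 0.01, -0.03, -0.10 and -0.12 for all genes.

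Of 12 measured collagen receptors 8 were above 6, including Ddr1 (11.34), a receptor kinase for fibrillar collagen, and Itgb1 (10.99), the β subunit of collagen-binding integrins. By limma 0 passed the adjusted threshold in the 5 comparisons and 2 passed without adjustment, both lower after the antibody in SP cells (4.59% of all genes were called there): Itga10 (-0.58 ± 0.25) and Itgb1 (-0.34 ± 0.15, SE). Itgb1 measured 11.05, 11.17 and 11.29 in untreated SP cells and 10.97, 10.63 and 10.89 after the antibody, without overlap, as was true downward of 8.04% of all genes. The array medians were 6.06, 5.80 and 5.95 in untreated and 5.75, 5.74 and 5.75 in treated SP cells. Values with centred arrays are not given for the genes of the 3 lists, so these differences include that shift. Of 18 matrix partners 14 were above 6, with Sparc, a collagen-binding glycoprotein, at 13.06. By limma 0 passed the adjusted threshold and 2 passed without adjustment, Matn2 (-0.89 ± 0.40) and Tgfbi (-0.81 ± 0.37, SE), lower after the antibody in non-SP cells (3.22% of all genes were called there). Matn2 measured 9.98, 10.36 and 10.01 untreated and 8.98, 8.52 and 10.18 treated, lowest in anti-EpCAM 2. Tgfbi measured 9.05, 9.77 and 8.89 untreated and 7.86, 8.18 and 9.23 treated, so the treatments overlapped for both. Ddr1 spanned 1.19 log2 units over the cultures, highest in anti-EpCAM 1 (11.85) and lowest in anti-EpCAM 2 (10.66). In the other 5 cultures it lay between 11.23 and 11.85, so the span rests on anti-EpCAM 2. Serpinh1 was lowest in anti-EpCAM 2 as well (12.12, against 12.63 to 12.92 in the other 5).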

How the data were processed

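The authors deposited log2 values for each probe set and array, made with RMA per the submitters' processing notes. Software, version and any later scaling: not given in the sources used here. No depth applies to arrays, and their number, 3 per group, limits the precision. Of 45101 probe sets 34958 had 1 symbol in the platform annotation of 2016, 932 had several and 9211 none; the probe set with the highest mean over 12 arrays stood for its gene, and no filter on level was applied. Members and gene lists were chosen with earlier results of these data known, so no list was tested as a set.

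limma 3.58.1 under R 4.3.3 gave the differences (group means, lmFit, eBayes, 8 residual degrees of freedom, two-sided, Benjamini-Hochberg over 18194 genes). The steps were tested on simulated data with independent arrays, which does not cover the pairing of SP and non-SP arrays. Named were all chains above 6, the 5 nearest and the 5 lowest below it, and per comparison the 3 highest and 3 lowest chains above 6 and 1 of each below. Spans and pairs used culture means over both fractions. The pairing comes from the replicate numbers together with the treatment: deviations of the paired arrays correlated at 0.55 to 0.84, while treated and untreated arrays of the same number gave -0.38 to -0.01. Correlations were tested over all 720 permutations with numpy 2.4.6, and the ranks came from scipy 1.17.1. Alternatives were median centring, quantile normalisation, the mean over probe sets, leaving out x_at and s_at probe sets, trend and robust eBayes, only the arrays compared, a level filter, blocks, and leaving out each array. The alternatives without the anti-EpCAM culture numbered 2, and those on the span count, were added after seeing the data.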

Additional observations from a re-analysis of the deposited data

How the results depend on the processing

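In every alternative that was run the number of chains past the adjusted threshold of limma was 0 in all 5 comparisons. Centring the arrays turned the median of the chains above 6 from -0.15 to 0.04 for the antibody in SP cells and from -0.01 to 0.04 between fractions after the antibody, so no sign is read from these medians. With 3 arrays a group, counts of 0 do not show that chains did not differ. With the culture as a replicate block the pairing left both fraction counts at 0, with lowest adjusted p of 1.00 (untreated) and 0.628 (anti-EpCAM) by limma, and a block on the number over all arrays left them at 0 too. The culture as a random block had a correlation of 0.68. Signs of single chains changed as follows without passing the threshold, and the cause was not tested. With the mean over probe sets, the fraction difference after the antibody became -0.023 for Col12a1 and 0.011 for Col9a3, the antibody difference in non-SP cells -0.17 for Col1a2, and that in SP cells -0.0020 for Col4a1. Col18a1 in non-SP cells became 0.13 with centred and 0.17 with quantile normalised arrays. Without the anti-EpCAM culture numbered 2, the fraction difference after the antibody became -0.017 for Col12a1 and 0.080 for Col1a1, the antibody difference in non-SP cells -0.023 for Col25a1 and 0.032 for Col18a1, and in SP cells -0.077 for Col12a1 and 0.085 for Col4a5. Leaving out each array in turn gave ranges across 0. For the fractions these were -0.55 to 0.10 (Col3a1), -0.16 to 0.50 (Col11a1), -0.033 to 0.28 (Col7a1), -0.52 to 0.073 (Col14a1), -0.71 to 0.21 (Col4a4) and -0.019 to 0.28 (Col9a1) untreated, and -0.14 to 0.69 (Col4a5), -0.28 to 0.79 (Col12a1) and -0.37 to 0.11 (Col1a1) after the antibody. For the antibody they were -0.072 to 0.18 (Col1a2), -0.067 to 0.054 (Col18a1) and -0.023 to 0.26 (Col25a1) in non-SP cells, and -0.030 to 0.18 (Col18a1), -0.45 to 0.61 (Col12a1), -0.31 to 0.74 (Col4a4), -0.66 to 0.085 (Col4a5) and -0.065 to 0.19 (Col4a1) in SP cells. For the interaction they were -0.29 to 1.01 (Col4a4) and -0.090 to 0.65 (Col14a1). Chains under 6 may be close to background, which these values do not show.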

Other observations

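Col4a4, a type IV chain below the line, spanned more between cultures than any chain above it. Its culture means were 4.34, 4.34 and 5.46 untreated and 5.66, 4.97 and 3.37 after the antibody, a span of 2.29 log2 units or 4.90-fold, with anti-EpCAM 1 highest and anti-EpCAM 3 lowest. Its second probe set spanned 2.10 log2 units, from 5.42 in anti-EpCAM 2 to 3.32 in untreated 2. The third spanned 1.18 log2 units, from 4.81 in anti-EpCAM 2 to 3.63 in anti-EpCAM 3, so the probe sets put different cultures at the ends. Col4a3, the head-to-head neighbour of Col4a4, had 5.43, 4.63 and 5.62 untreated and 5.18, 5.56 and 4.39 after the antibody, a span of 1.23 log2 units, also lowest in anti-EpCAM 3. The second Col4a3 probe set was lowest in untreated 2 (3.15), with 3.66 in anti-EpCAM 3. These levels are under 6, and Col4a4 was chosen for mention after its values were seen.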
